A study of Arabidopsis thaliana with 30 samples.

Results

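The transcriptome of leaves from the AhHAB4-PAI-1 OE line of A. thaliana (line L13) was compared with that of the Ah2880 OE line (line L12) after 11 h at 45 °C (stage HS-11). The comparison rests on the 2 libraries of each line at that stage, out of 30 libraries in the series, and takes in all genes: 19761 of the 37513 entries of the count table held enough counts to be tested. AhHAB4-PAI-1 codes for an RNA-binding protein of grain amaranth with arginine-glycine-glycine boxes and a hyaluronan-binding domain. Ah2880 codes for a small grain amaranth protein of unknown function. Both transgenes were driven by the constitutive CaMV 35S promoter in the Columbia ecotype, so that each OE line carries its transgene throughout the plant, and each was sequenced as a single line, which means that the transgene and the insertion event cannot be told apart. L13 HS-11, L12 HS-11 and untransformed WT HS-11 plants were 4 weeks old by their labels (3 weeks is given in the text of the study), leaves of several plants were pooled per replicate, and none of the libraries came from unstressed plants. Other stages of the same lines were used to see whether a difference was also present there, namely 1 h (HS-1) and 5.5 h (HS-5) of heat, and 1 and 3 days of recovery (R-1 and R-3) from 22 h of heat. The transgenes themselves are not A. thaliana genes and were not analysed here.

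Heat shock factors (HSFs) are transcription factors that bind heat shock elements and switch on heat shock proteins (HSPs), the chaperones that hold, refold or disaggregate proteins damaged by heat. Abscisic acid (ABA) is the hormone of water deficit. Its receptors inhibit clade A protein phosphatases (PP2Cs), which releases SnRK2 kinases to phosphorylate bZIP factors of the ABF family, and these bind ABA-responsive elements (ABREs). Many genes of this pathway, the phosphatases included, are themselves induced by ABA.

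The L13 HS-11 libraries held 5007517 and 4203815 counts, against 2125493 and 1467622 in the L12 HS-11 libraries. Levels below are CPM, counts scaled to a common library size with TMM factors, and are not per gene length. Both L13 HS-11 libraries stood apart from the other HS-11 libraries. Across genes, the mean log2(CPM + 1) of L13 HS-11 had a Pearson correlation of 0.969 with WT HS-5 and 0.947 with L13 HS-5, and of 0.868 with L12 HS-11 and 0.814 with WT HS-11, whereas L12 HS-11 and WT HS-11 correlated at 0.961. These values describe the libraries, since genes are not independent replicates. In MLP34, a gene of the major latex protein family, the L13 HS-11 libraries had 0.504 and 0.197 CPM, inside the 0 to 4.21 CPM of the other L13 libraries, while all L12 libraries had at least 33.5 CPM. WT libraries had at least 23.1 CPM except both WT R-1 libraries, which were at 0. MLP34 was picked from the genes called in the same direction between L13 and L12 at all 5 stages, HS-11 included. Its low level in the L13 HS-11 libraries is therefore no independent check of their identity. No value without the L13 HS-11 pair can be given, because the pair is the whole group. Whether any libraries were exchanged was not tested and cannot be settled from the labels, and every HS-11 comparison below takes the labels as given. Leaf mesophyll genes were well detected in both lines, among them RBCS1A, a small subunit of Rubisco, with 2347 and 2376 CPM in L13 and 3615 and 3560 CPM in L12.

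With adjusted p under 0.01 in edgeR's quasi-likelihood test, 9398 of 19761 genes differed between L13 and L12 at HS-11 (47.6%). Of these, 5122 were higher in L13 (25.9%) and 4276 were lower (21.6%). At least a 2-fold difference was seen for 4125 of the higher and 2496 of the lower genes. The median log2 fold change of all genes tested was 0.21, so changes of a size near it are small relative to the bulk of the genes. Since close to 1 in 2 genes passed the test, the gene groups below are described by their counts and medians beside these shares.

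Cytosolic and organellar chaperones were much lower in L13 than in L12. HSP70 (AT3G12580), a heat-induced cytosolic chaperone, had 2018 and 1930 CPM in L13, against 14384 and 14040 CPM in L12. Both L13 libraries lay far below both L12 libraries, a 7.20-fold difference (log2 fold change -2.85 ± 0.12 SE, n = 2, adjusted p = 4.4e-27 in edgeR's test). HSP90.1, the heat-induced form of HSP90, had 1177 and 1111 CPM in L13 and 7880 and 7221 CPM in L12, and HSP101, the disaggregase needed for acquired thermotolerance, had 741 and 709 CPM in L13 and 4995 and 4688 CPM in L12. Of the 22 large chaperones tested (HSP60, HSP70, HSP90 and HSP100 types), 21 were lower in L13 and none was higher, with a median log2 fold change of -2.21. The one that did not pass was CPHSC70-1, a chloroplast HSP70, at 955 and 935 CPM in L13 and 1177 and 1122 CPM in L12 (adjusted p = 0.0191). Chloroplast and ER members of the list moved less than the cytosolic heat-induced ones: HSP90.5 of the chloroplast fell by 0.58 and HSP90.7 of the ER by 1.11 on the log2 scale. Members of the cytosolic HSP70 and HSP90 families are close in sequence, so that their reads may in part be assigned among copies.

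Small HSPs, which hold unfolding proteins until the larger chaperones act, followed the same direction. HSP23.6-MITO, a mitochondrial small HSP, had 500 and 472 CPM in L13, against 4421 and 4442 CPM in L12, a 9.11-fold difference (log2 fold change -3.19 ± 0.12 SE, n = 2, adjusted p = 3.3e-28 in edgeR's test). HSP17.6II, a cytosolic class II member, had 465 and 449 CPM in L13 and 2958 and 2787 CPM in L12. HSP18.2, of cytosolic class I, had 2764 and 2658 CPM in L13 and 6888 and 5886 CPM in L12, and HSP21, the chloroplast small HSP, had 1233 and 1217 CPM in L13 and 1875 and 1833 CPM in L12. Among these genes the difference was smallest in HSP21 (log2 fold change -0.60 ± 0.11 SE). Of 17 small HSPs tested, 16 were lower in L13 and 1 was higher. The exception was AT4G21870, an HSP20-like gene at 9.41 and 8.89 CPM in L13 and 1.10 and 3.11 CPM in L12. Summed over the list, small HSPs made up 14281 and 13414 CPM in L13, against 52420 and 44601 CPM in L12 and 79653 and 87817 CPM in WT. The lines thus ranked in one order, with L13 lowest and WT highest. The sums of large chaperones ranked likewise, at 14407 and 14080 CPM in L13, 71218 and 69868 CPM in L12, and 118398 and 122115 CPM in WT.

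**Figure D1:**
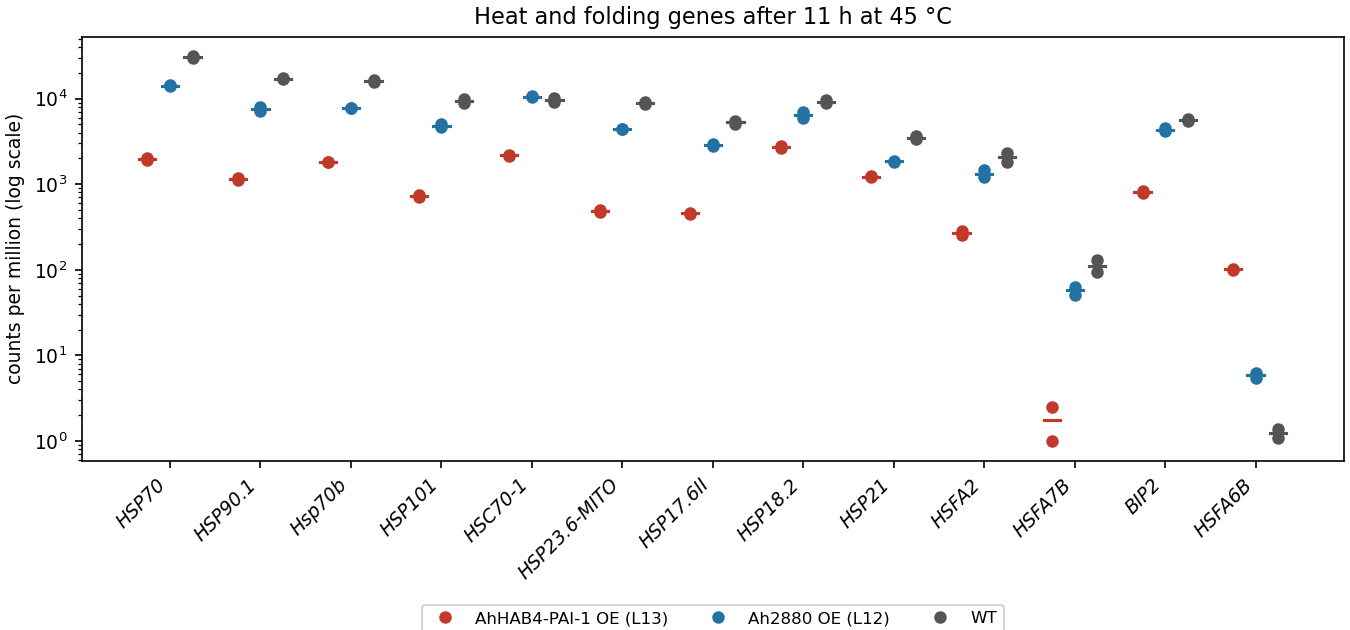
CPM of 13 heat and folding genes (log axis) in the 2 libraries per line at HS-11, for AhHAB4-PAI-1 OE (L13), Ah2880 OE (L12) and WT. Points are libraries and dashes are means; HSP70 sits at 2018 and 1930 CPM in L13, below 14384 and 14040 CPM in L12, while HSFA6B runs the other way.

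Heat shock elements were looked for near the starts of these genes because they are the sites that HSFs bind. The letters GAANNTTC, on either strand, were found in 5 of the 17 small HSPs (29.4%) and in 4 of the 22 large chaperones (18.2%), against 11.5% of the 19296 tested genes with a window from 250 bases before to 50 bases after the gene start in the TAIR10.1 genome. The examples are the members of either list with the motif and the largest difference. Both matches lay just after the annotated gene start, and 30 bases around each are given 5′ to 3′ with the matched letters in capitals. HSP23.6-MITO is at chr4:12916928-12916957 (plus strand) and HSP70 at chr3:3993848-3993877 (minus strand).
HSP23.6-MITO: ccacttctccaGAACATTCactcactgaca
HSP70: tctttactcgtGAACGTTCtcgaaagctct

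Co-chaperones and thermomemory genes were lower in L13 without exception, in all 13 tested, with a median log2 fold change of -1.77. HOP3, which links HSP70 to HSP90, had 340 and 330 CPM in L13 and 2042 and 1911 CPM in L12. FES1A, which keeps cytosolic HSP70 from being degraded, had 117 and 121 CPM in L13 and 651 and 719 CPM in L12. The immunophilin ROF2 had 312 and 347 CPM in L13 and 1511 and 1503 CPM in L12. The smallest difference in the list was that of DREB2B, a transcription factor of the DREB2 family, at 63.5 and 66.8 CPM in L13 and 87.7 and 105 CPM in L12. Its call was lost with DESeq2's size factors, with DESeq2's test, without L13 replicate 1 (adjusted p = 0.0167 in edgeR's test) and without L12 replicate 2 (0.0436).

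The HSFs did not move as 1 block. HSFA2, the factor that prolongs the heat response, had 283 and 257 CPM in L13, against 1449 and 1217 CPM in L12 (log2 fold change -2.30 ± 0.13 SE, n = 2, adjusted p = 3.9e-22 in edgeR's test). HSFA7B stood at 2.52 and 0.987 CPM in L13 and at 63.6 and 51.4 CPM in L12, and HSFA7A at 8.57 and 9.08 CPM in L13 and 36.2 and 37.4 CPM in L12. In contrast, HSFA6B, an HSF known to act downstream of ABA, had 103 and 99.9 CPM in L13 and 5.48 and 6.23 CPM in L12, a 17.4-fold difference. Such a level was not particular to L13, since WT at HS-5 had a mean of 94.9 CPM. HSFC1, at 85.1 and 71.1 CPM in L13 and 36.7 and 21.0 CPM in L12, and HSFA4C were also higher in L13. Of 19 HSFs tested, 3 were higher and 7 were lower. Among the HSFA1 genes, the master activators, HSFA1D and HSFA1E were lower (log2 fold changes -0.68 and -1.52), and HSFA1A and HSFA1B did not pass the test (0.67 and 0.08).

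Genes for folding in the endoplasmic reticulum were lower in L13 as well. BIP2, the ER HSP70, had 830 and 779 CPM in L13 and 4514 and 4143 CPM in L12. The lectin chaperone CNX1 had 562 and 525 CPM in L13 and 2433 and 2276 CPM in L12. BZIP28, BZIP17 and BZIP60, the transcription factors of the unfolded protein response, fell by 2.12, 2.24 and 1.76 on the log2 scale. Of 17 genes tested, 14 were lower, and the 2 that were higher were IRE1A and IRE1B, the sensor kinases and RNases that splice BZIP60 mRNA (log2 fold changes 0.72 and 1.20).

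Genes of protein breakdown and protein synthesis shared this direction. RPT3, an ATPase subunit of the 26S proteasome, had 143 and 131 CPM in L13, against 668 and 663 CPM in L12, and the lid subunit RPN6 had 140 and 130 CPM in L13 and 665 and 626 CPM in L12. Of 35 proteasome subunits tested, 31 were lower in L13 and none was higher, with a median log2 fold change of -1.46. The base, the lid and the core ring all took part: the core subunit PBE1 fell by 1.95 on the log2 scale. Of 27 cytosolic ribosomal proteins, 25 were lower (median -1.28) and 1 was higher, RPL10B, at 8.91 and 8.29 CPM in L13 and 3.84 and 3.11 CPM in L12. RPS18A, of the small subunit, had 30.4 and 30.6 CPM in L13 and 107 CPM in both L12 libraries. The autophagy genes were more mixed, with 6 of 19 lower and 1 higher. They included ATG18A, at 56.5 and 52.1 CPM in L13 and 350 and 342 CPM in L12, and the aggregate receptor NBR1, at 354 and 338 CPM in L13 and 917 and 901 CPM in L12.

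The telo box (AAACCCTA, either strand), a motif common near the starts of ribosomal protein genes, was present in 12 of the 27 ribosomal protein windows (44.4%), against 5.61% of the windows of tested genes. That of RPS18A, at chr1:8067868-8067897 (plus strand, TAIR10.1), is shown because RPS18A had the largest difference among the members with the motif.
RPS18A: attaggttggaAAACCCTAaatatgccgct

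Serine/arginine-rich splicing factors were lower in 11 of 19 genes tested and higher in 1 (median log2 fold change -0.79). SR45A, a heat-responsive member, had 142 and 145 CPM in L13 and 529 and 480 CPM in L12, and SR30 fell by 1.11 on the log2 scale. SR34B was the member that was higher, at 36.6 and 33.2 CPM in L13 and 13.7 and 13.2 CPM in L12. As L13 carries an RGG-box RNA-binding protein, genes for A. thaliana RNA granule and RGG proteins were listed too. Of 27 tested, 8 were lower and 4 were higher with a median of -0.05, beside 21.6% lower and 25.9% higher among all genes tested. AT5G47210, which is annotated in the same hyaluronan and mRNA binding family, had 119 and 122 CPM in L13 and 280 and 289 CPM in L12. The glycine-rich clock-controlled GRP7 had 1342 and 1236 CPM in L13 and 774 and 524 CPM in L12. ECT2, a reader of N6-methyladenosine, had 305 and 300 CPM in L13 and 641 and 604 CPM in L12.

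**Figure D2:**
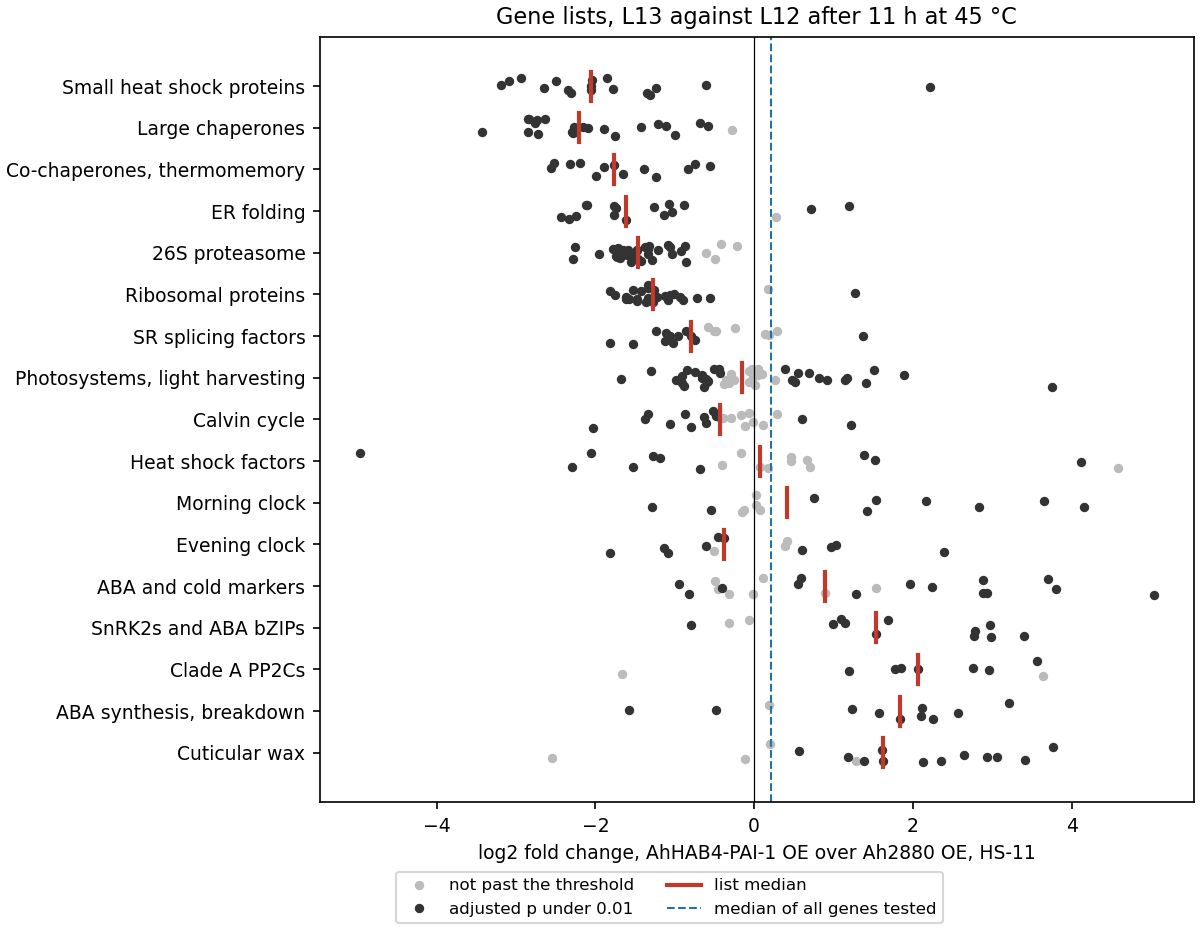
Log2 fold change (L13 over L12, HS-11) of each tested member of 17 gene lists, with each list's median as a red bar and the median of all genes tested (0.21) as a dashed line. Chaperone, proteasome and ribosomal lists lie to the left (medians -2.21 to -1.28), and ABA and wax lists to the right (medians up to 2.06).

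Most clade A PP2C genes, which act in ABA signalling, were higher in L13 than in L12. The phosphatase HAI1 had 228 and 221 CPM in L13, against 19.7 and 17.9 CPM in L12, an 11.8-fold difference (log2 fold change 3.56 ± 0.20 SE, n = 2, adjusted p = 2.6e-22 in edgeR's test). ABI1 had 348 and 345 CPM in L13 and 87.7 and 77.9 CPM in L12, and PP2CA had 301 and 303 CPM in L13 and 81.1 and 87.2 CPM in L12. Means in WT at HS-5 were 196 CPM for HAI1, 329 CPM for ABI1 and 340 CPM for PP2CA, so these levels were not particular to L13. Of 9 clade A PP2Cs tested, 7 were higher in L13 and none was lower, with a median of 2.06. The other two, AHG1 and HAI3, had under 2 CPM in all 4 libraries, so that no difference was detectable at this depth. Summed over the list, clade A PP2Cs took 0.156% and 0.158% of the counts in L13, 0.0257% and 0.0276% in L12, and 0.0131% and 0.0129% in WT, which is the reverse of the order of the chaperones.

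Downstream of the phosphatases, 10 of 13 SnRK2 and ABA bZIP genes were higher in L13 and 1 was lower. ABF3 had 210 and 196 CPM in L13 and 32.3 and 26.5 CPM in L12. AFP3, of the family of ABI5-binding proteins, had 112 and 120 CPM in L13 and 11.0 and 10.9 CPM in L12, and ABF2 rose by a log2 fold change of 2.99. The kinase gene SNRK2.3 was the member that was lower, at 38.3 and 38.7 CPM in L13 and 63.0 and 71.6 CPM in L12. The ABA receptors did not share the direction of most of these genes. Of 7 tested, none was higher and 1 was lower, PYL8, at 90.1 and 91.8 CPM in L13 and 125 and 132 CPM in L12, a call that was lost with DESeq2's size factors (adjusted p = 0.0147 in edgeR's test), without L13 replicate 1 (0.0125) and without L12 replicate 2 (0.0146).

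Genes of ABA synthesis and breakdown were both higher. NCED3, the rate-limiting enzyme of stress-induced ABA synthesis, had 97.8 and 83.1 CPM in L13, against 17.0 and 21.8 CPM in L12 (log2 fold change 2.25 ± 0.19 SE, n = 2, adjusted p = 2.3e-15 in edgeR's test). WT at HS-5 had a mean of 96.2 CPM of NCED3. CYP707A1, which starts ABA breakdown, had 11.6 and 11.8 CPM in L13 and 2.19 and 1.56 CPM in L12. Of 11 genes tested, 8 were higher (median 1.84) and 2 were lower, ABA2 and BGLU18. The call of BGLU18, a glucosidase that frees ABA from its conjugate, was lost when any 1 of the 4 libraries was left out (adjusted p between 0.0105 and 0.157 in edgeR's test). ABA2, a dehydrogenase of the synthesis route, had 9.25 and 11.3 CPM in L13 and 36.2 and 22.6 CPM in L12.

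ABA and cold response genes went both ways. Of 21 tested, 11 were higher in L13 and 3 were lower, with a median of 0.89. RD29B, whose promoter is driven through ABREs, had 90.8 and 90.7 CPM in L13 and 7.12 and 5.45 CPM in L12, a 14.0-fold difference. The dehydrin RAB18 (AT5G66400) had 103 and 88.9 CPM in L13 and 8.22 and 6.23 CPM in L12, and the NAC factor RD26 had 178 and 173 CPM in L13 and 21.4 and 24.9 CPM in L12. Means in WT at HS-5 were 122 CPM for RD29B, 127 CPM for RAB18 and 189 CPM for RD26. The 3 that were lower were the dehydrins ERD10, COR47 and LTI30, which fell by 0.82, 0.40 and 0.94 on the log2 scale, while the related dehydrin ERD14 was higher, at 375 and 368 CPM in L13 and 253 and 241 CPM in L12. RD29A had 770 and 744 CPM in L13 and 1002 and 870 CPM in L12 (adjusted p = 0.0292). COR413-PM1, CBF1 and CBF2 were also higher in L13 (adjusted p = 0.00291, 0.00223 and 1.8e-07 in edgeR's test). The call of COR47 was lost without L13 replicate 1 (adjusted p = 0.0193 in edgeR's test), L13 replicate 2 (0.0122) or L12 replicate 1 (0.0471). The cold factor CBF3 had 24.0 and 24.3 CPM in L13 and 1.64 and 5.45 CPM in L12.

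ABREs (ACGTGGC or ACGTGTC, either strand) were found in the windows of 10 of 22 ABA and cold response genes (45.5%) and 3 of 9 clade A PP2Cs (33.3%), against 9.08% of tested genes. These letters can overlap the G-box CACGTG. The 250 bases before the gene start are shown for PP2CA (chr3:3585851-3586100, minus strand) and CBF2 (chr4:13016236-13016485, minus strand), each the member of its list with the motif and the largest difference. In PP2CA the matches begin 231 and 110 bases before the start, and in CBF2 the match begins 101 bases before it.
PP2CA: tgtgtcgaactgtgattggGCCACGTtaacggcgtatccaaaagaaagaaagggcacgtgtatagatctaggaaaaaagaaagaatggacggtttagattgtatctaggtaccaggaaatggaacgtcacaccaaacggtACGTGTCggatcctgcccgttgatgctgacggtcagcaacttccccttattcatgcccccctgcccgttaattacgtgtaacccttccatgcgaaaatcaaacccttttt
CBF2: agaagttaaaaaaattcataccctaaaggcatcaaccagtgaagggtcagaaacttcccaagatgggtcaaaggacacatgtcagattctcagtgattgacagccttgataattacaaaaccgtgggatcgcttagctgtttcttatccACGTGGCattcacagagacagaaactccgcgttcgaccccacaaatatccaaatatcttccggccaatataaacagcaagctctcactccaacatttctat
CBF2 itself had 14.0 and 10.1 CPM in L13 and 0.548 and 0 CPM in L12, which is a single count in the L12 pair.

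Cuticular wax genes, which make and export the lipids that seal the leaf surface, were higher in L13. CER1, which forms wax alkanes, had 393 and 408 CPM in L13, against 91.5 and 91.1 CPM in L12 (log2 fold change 2.13 ± 0.14 SE, n = 2, adjusted p = 4.4e-19 in edgeR's test). The condensing enzyme CER6 had 416 and 406 CPM in L13 and 136 and 130 CPM in L12, and MYB96, a wax regulator that responds to ABA, had 44.4 and 44.2 CPM in L13 and 6.58 and 4.67 CPM in L12. Of 16 wax genes tested, 12 were higher and none was lower, with a median of 1.62. CER4, CER10, KCR1 and MAH1 did not pass the test. In the related lipid list, the oleate desaturase FAD2 had 1159 and 1125 CPM in L13 and 379 and 342 CPM in L12, whereas DGAT1, which completes triacylglycerol synthesis, had 33.8 and 35.5 CPM in L13 and 121 and 122 CPM in L12. Of 13 lipid genes tested, 3 were higher and 5 were lower.

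**Figure D3:**
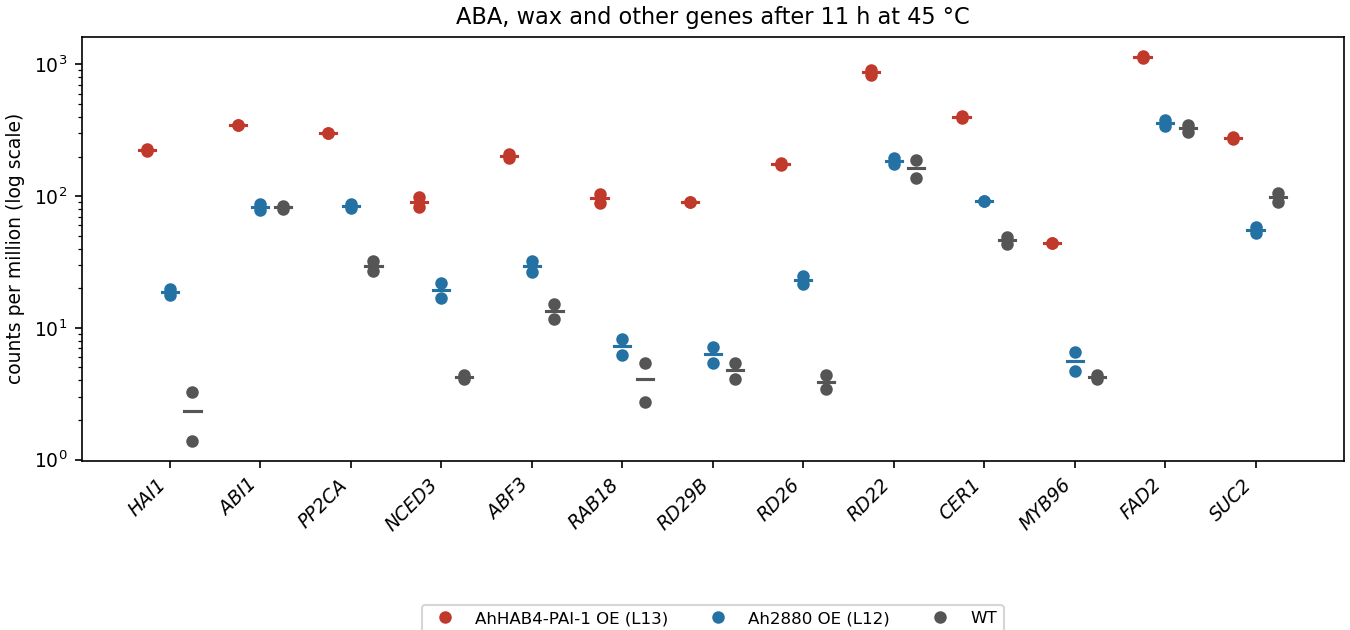
CPM of 13 ABA, wax, lipid and phloem genes (log axis) in the 2 libraries per line at HS-11, with L13, L12 and WT from left to right. Points are libraries and dashes are means; HAI1 sits at 228 and 221 CPM in L13, above 19.7 and 17.9 CPM in L12.

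Clock genes were split. The morning genes CCA1 and LHY had 97.8 and 88.5 CPM and 23.5 and 27.8 CPM in L13, against 18.6 and 23.4 CPM and 1.64 and 6.23 CPM in L12. LNK2, a co-activator in the morning loop, had 57.2 and 56.1 CPM in L13 and 7.12 and 0.779 CPM in L12. Of 14 morning genes tested, 7 were higher in L13 and 2 were lower, and of 13 evening genes 4 were higher and 6 were lower. PRR3 and TOC1, of the pseudo-response regulators, were higher (log2 fold changes 2.39 and 0.97), while PRR5 had 68.2 and 57.9 CPM in L13 and 133 and 134 CPM in L12. The phytochrome-interacting factor PIF5 had 55.6 and 57.5 CPM in L13 and 6.58 and 8.56 CPM in L12. In its light signalling list 3 of 14 were higher and 2 were lower, beside 25.9% higher and 21.6% lower among all genes tested. G-boxes were present in 10 of 14 morning windows (71.4%, against 8.88% of tested genes), and the evening element AAAATATCT in 6 of 13 evening windows (46.2%, against 3.03%). The examples shown are RVE8, a morning activator (chr3:2946238-2946267, plus strand), with its G-box, and the 250 bases before the start of PRR5 (chr5:8358547-8358796, minus strand), where the evening element lies on the opposite strand.
RVE8: actacaagtctaCACGTGcttcaagcttga
PRR5: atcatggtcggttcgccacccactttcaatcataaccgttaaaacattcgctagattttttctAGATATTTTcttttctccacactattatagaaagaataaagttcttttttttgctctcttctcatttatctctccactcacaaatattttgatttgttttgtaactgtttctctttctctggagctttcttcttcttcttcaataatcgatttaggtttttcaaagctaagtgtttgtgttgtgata
RVE8 had 6.56 and 6.52 CPM in L13 and 0 and 0.779 CPM in L12.

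The motifs were also counted over all genes called. The heat shock element was in 10.6% of the windows of genes higher in L13 and in 11.3% of those lower (11.5% of genes tested). Among genes changed at least 4-fold, it was in 10.5% of the 1879 higher and 15.0% of the 440 lower. The ABRE was in 9.21% of the higher and 9.71% of the lower genes, against 9.08% of the genes tested. At 4-fold or more it was in 8.09% of the higher and 9.77% of the lower genes. The telo box was in 5.02% of the higher and 7.62% of the lower genes, against 5.61% of the genes tested. At 4-fold or more its shares were 5.32% and 5.23%. A match describes the letters of a window and is not a site shown to be bound.

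Photosynthesis genes went both ways. Of 48 photosystem and light-harvesting genes tested, 13 were higher in L13 and 18 were lower, with a median of -0.16. The light-harvesting genes LHCB2.3 (91.1 and 82.6 CPM in L13, 7.12 and 5.45 CPM in L12) and LHCA1 (1197 and 1141 CPM in L13, 436 and 382 CPM in L12) were among the higher ones. FD1, a ferredoxin, had 536 and 473 CPM in L13 and 1739 and 1496 CPM in L12, and PSBQA, of the oxygen-evolving complex, had 495 and 457 CPM in L13 and 1272 and 1070 CPM in L12. Of 21 Calvin cycle genes, 10 were lower and 2 were higher, and SBPASE, a regulatory enzyme of the cycle, had 169 and 166 CPM in L13 and 452 and 419 CPM in L12.

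Nitrogen and energy metabolism held some of the lowest ratios. The nitrate reductase gene NIA1 had 71.8 and 71.9 CPM in L13 and 477 and 512 CPM in L12, and 6 of 10 nitrogen assimilation genes were lower with none higher. PDC1, a pyruvate decarboxylase of fermentation, had 3.03 and 3.75 CPM in L13 and 101 and 92.7 CPM in L12, while ADH1, the next enzyme of the route, did not pass the test (13.6 and 14.8 CPM in L13, 21.9 and 15.6 CPM in L12). Of 13 low-oxygen genes tested, 5 were lower and 2 were higher. AOX1A, the alternative oxidase of mitochondria, had 95.3 and 90.3 CPM in L13 and 365 and 424 CPM in L12, and 5 of 9 mitochondrial stress genes were lower with none higher. Galactinol synthase GOLS1, a target of HSFs, had 273 and 266 CPM in L13 and 1404 and 1394 CPM in L12. In contrast, the proline synthesis gene P5CS1 had 92.6 and 96.0 CPM in L13 and 25.2 and 16.4 CPM in L12. WT at HS-5 had a mean of 112 CPM of P5CS1. Of 11 proline and raffinose genes tested, 5 were higher and 3 were lower. In the starch list 8 of 21 genes were lower in L13 and 5 were higher. GBSS1, the granule-bound starch synthase, had 50.6 and 49.0 CPM in L13 and 7.67 and 6.23 CPM in L12. WT at HS-5 had a mean of 48.6 CPM of GBSS1. BAM3, a beta-amylase of the chloroplast, was lower, with 160 and 141 CPM in L13 and 323 and 308 CPM in L12.

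Among genes of defence and ageing, NAP, a NAC factor that promotes leaf senescence, had 36.5 and 41.5 CPM in L13. It had no count in either L12 library, so that it was at least 19.6-fold higher with 3 counts set in each L12 library. WT at HS-11 had no count of NAP either. Means at HS-5 were 37.6 CPM in L13, 17.1 CPM in L12 and 29.6 CPM in WT. Such a level was not particular to L13, since L12 at HS-1 had a mean of 52.0 CPM. Of 12 senescence genes tested, 6 were higher in L13 and none was lower. MYB28 and MYB34, regulators of glucosinolate synthesis, had 32.6 and 29.8 CPM and 28.6 and 33.0 CPM in L13. They had 4.93 and 2.34 CPM and 2.74 and 4.67 CPM in L12, and means of 52.5 CPM each in WT at HS-5. Of 24 glucosinolate genes, 10 were higher and 3 were lower. The jasmonate synthesis gene LOX2 had 422 and 408 CPM in L13 and 1318 and 1273 CPM in L12, in a list where 7 of 24 were lower and 4 were higher. RBOHD, the NADPH oxidase of stress signalling, had 38.5 and 35.2 CPM in L13 and 9.86 and 9.34 CPM in L12. Its mean in WT at HS-5 was 62.8 CPM. The cytosolic peroxidase APX1 had 81.9 and 85.3 CPM in L13 and 196 and 216 CPM in L12. Of 19 genes of reactive oxygen metabolism tested, 6 were higher and 7 were lower.

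Away from the lists, the largest falls, among genes averaging 50 counts or more in the L12 libraries, included PCC1 and a pair of related loci, AT3G22235 and AT3G22240. PCC1, known as a pathogen- and circadian-controlled gene, had 2.19 and 1.97 CPM in L13, against 125 and 152 CPM in L12 (log2 fold change -6.01 ± 0.23 SE, n = 2, adjusted p = 8.6e-29 in edgeR's test). AT3G22235 (7.23 and 2.57 CPM in L13, 214 and 192 CPM in L12) and AT3G22240 (3.36 and 2.37 CPM in L13, 116 CPM in both L12 libraries) were close to it in size of change. AT3G19920, a BTB/POZ domain gene, had 1.18 and 0.987 CPM in L13 and 49.9 and 48.3 CPM in L12, and SRO3, a relative of RCD1, had 6.39 and 5.92 CPM in L13 and 95.9 and 103 CPM in L12. AT3G41761 and AT3G41762, entries beside the 18S ribosomal RNA gene AT3G41768, were also among the 12 lowest, and as ribosomal RNA genes occur in many copies these entries are uncertain. Most of the 12 largest rises were genes with no count in L12. AT4G18220 had 27.1 and 19.6 CPM in L13 and no count in L12 (at least 11.7-fold higher).

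The difference between the lines at HS-11 was not that at HS-5. HSP70 had means of 8496 CPM in L13 and 1600 CPM in L12 at HS-5, which is the reverse of HS-11. All 17 small HSPs were higher in L13 at HS-5 (median log2 fold change 2.25, with 12.1% of all genes higher and 14.4% lower), and of 22 large chaperones 18 were higher and 1 was lower. At HS-1, 13 small HSPs and 18 large chaperones were higher in L13 and none of either list was lower. Among all 19761 genes tested, 1636 were higher in L13 at HS-1. The higher ones made up 48.5% of the genes called at that stage. The wax genes turned round too, with 12 of 16 lower in L13 at HS-5, and 13 lower and 1 higher at HS-1. The proteasome list did not reverse, since 1 subunit was higher and 2 were lower at HS-5, and the clade A PP2Cs had 2 higher and 1 lower there.

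Each difference of differences was tested in the same model. Relative to HS-5, the L13 minus L12 difference at HS-11 was changed for 8239 genes, 4716 upward (23.9%) and 3523 downward (17.8%). That of HSP70 was -5.26 and that of HSP90.1 was -5.68 on the log2 scale (adjusted p = 2.0e-32 and 3.5e-33 in edgeR's test), and it was downward for 16 of 17 small HSPs, 20 of 22 large chaperones, 32 of 35 proteasome subunits and 23 of 27 ribosomal proteins. It was upward for 14 of 16 wax genes and 7 of 9 clade A PP2Cs. Relative to HS-1, 3884 genes were changed upward (19.7%) and 3325 downward (16.8%), among them 15 of 16 wax genes upward and 21 of 22 large chaperones downward. Of the 9398 genes called at HS-11, 3052 were also called at HS-5 (32.5% of the HS-11 calls and 58.2% of the HS-5 calls), 1247 in the same direction and 1805 in the opposite one.

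**Figure D4:**
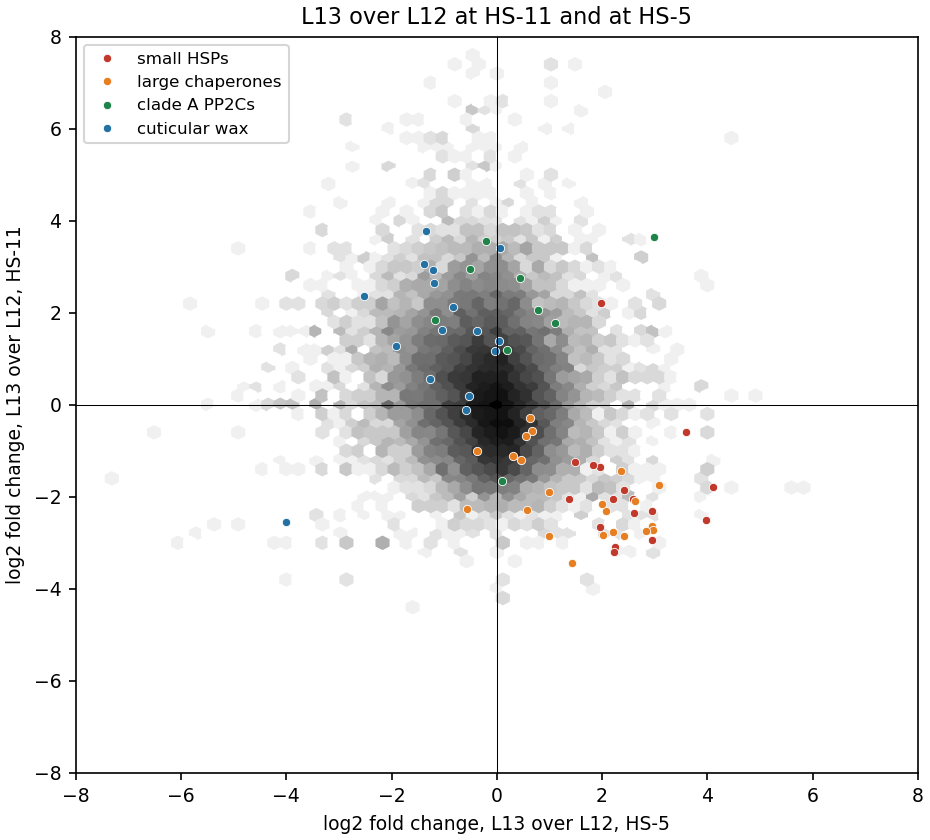
Log2 fold change of L13 over L12 at HS-5 (horizontal) and at HS-11 (vertical) for all tested genes as grey cells, darker where more genes fall, with members of 4 lists as points. Small HSPs and large chaperones lie mostly at the lower right, with medians of 2.25 and 1.72 at HS-5 and -2.05 and -2.21 at HS-11, and 4 genes fall outside the axes.

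By stage, HSP70 in L13 had 28897 and 29600 CPM at HS-1, 8598 and 8395 CPM at HS-5 and 2018 and 1930 CPM at HS-11. In L12 it had 18331 and 17919 CPM at HS-1, 1592 and 1608 CPM at HS-5 and 14384 and 14040 CPM at HS-11. WT had 22118 and 20433 CPM at HS-1, 3483 and 3510 CPM at HS-5 and 31475 and 30200 CPM at HS-11. The gene was thus high again at 11 h in L12 and WT, and not in L13. RPT3 was between 99.6 and 173 CPM in every L13 library and between 111 and 192 CPM in L12 at the other stages, against 668 and 663 CPM in L12 at HS-11. HAI1 was between 142 and 259 CPM in L12 at the other stages and had 19.7 and 17.9 CPM at HS-11, whereas L13 ranged from 58.9 CPM at R-3 to 228 CPM at HS-11.

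**Figure D5:**
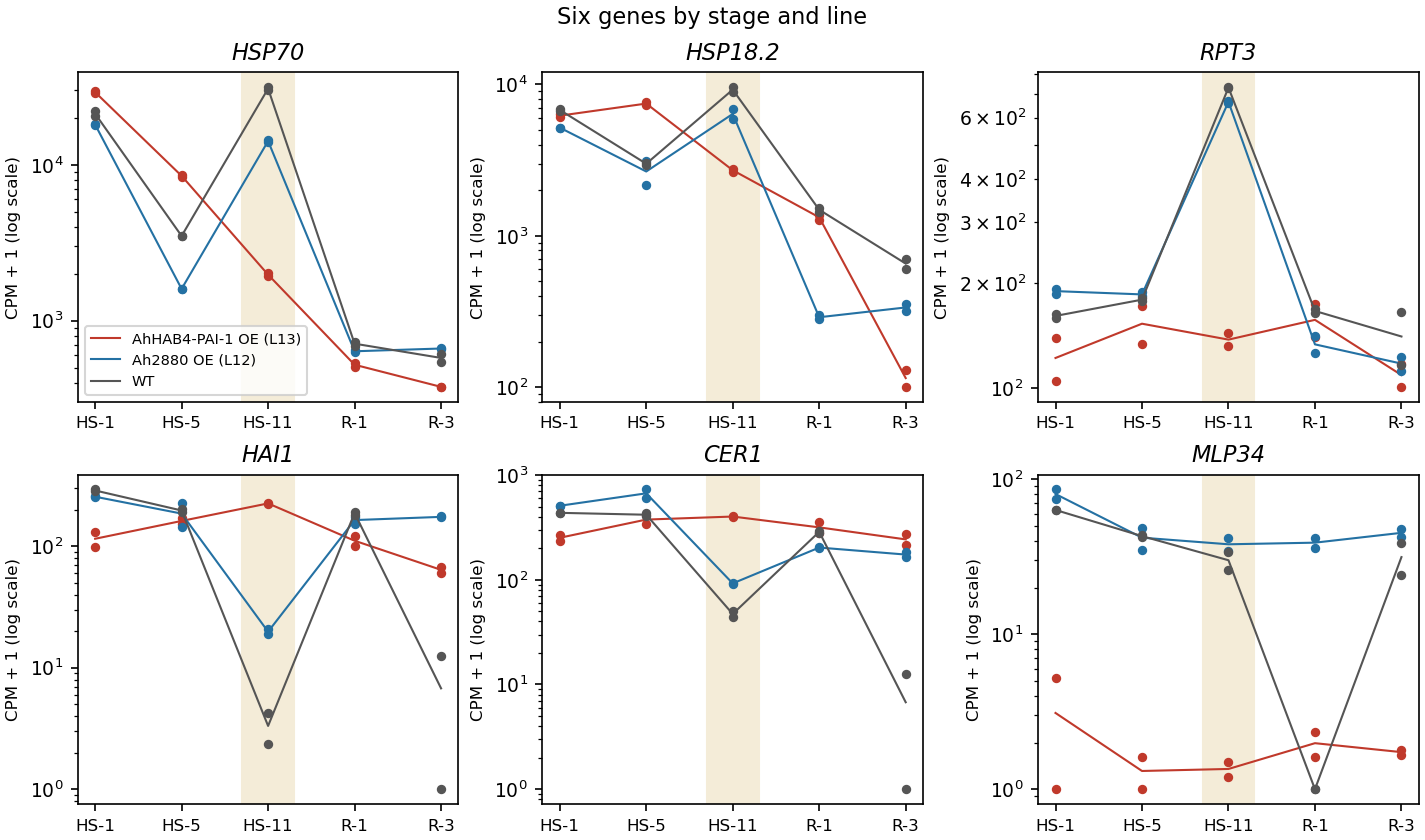
CPM plus 1 (log axis) of 6 genes in L13, L12 and WT at the 5 stages, with the 2 libraries as points, their mean as a line and HS-11 shaded. At HS-11, HSP70, HSP18.2 and RPT3 are lower and HAI1 and CER1 higher in L13 than in L12, and MLP34 is near 0 in L13 at every stage; WT R-3 rests on 46825 and 50677 counts.

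Genes that differed in the same direction at all 5 stages were few, 48 of 19761 (0.243%), 26 higher and 22 lower in L13. The L12 HS-11 libraries had 40.5 and 33.5 CPM of MLP34 and 17.5 and 17.9 CPM of GSTF7, a glutathione S-transferase, against 0.336 and 0.592 CPM of GSTF7 in L13. JAL33, a jacalin-type lectin gene, had 3.53 and 3.16 CPM in L13 and 28.5 and 24.1 CPM in L12. OSM34, an osmotin, had 3.03 and 3.55 CPM in L13 and 10.4 and 6.23 CPM in L12, a call that was lost without L13 replicate 1 (adjusted p = 0.0132 in edgeR's test) and without L12 replicate 1 (0.215).

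Set beside WT at HS-11, L13 differed in 10490 genes, 29.5% of the genes tested higher and 23.6% lower, and L12 in 1752, 3.89% higher and 4.98% lower. The 2 comparisons share the WT libraries, and the L12 count was between 716 and 1040 when any 1 of its 4 libraries was left out: 895 without L12 replicate 1, 1021 without L12 replicate 2, 1040 without WT replicate 1 and 716 without WT replicate 2. Small HSPs were lower than in WT in 17 of 17 genes for L13 (median log2 fold change -2.99) and in 15 of 17 for L12 (-0.99). Proteasome subunits were lower in 34 of 35 for L13 (-1.65) and in 4 of 35 for L12 (-0.28). Of the clade A PP2Cs, 7 of 9 were higher than in WT in L13 (2.75) and 4 of 9 in L12 (0.93). Wax genes were higher in 12 of 16 for L13 (1.97), and in L12 1 was higher and 2 were lower (0.15). Loci that the study chose on these libraries for L13 at HS-11 were higher in L13 than in L12 in 95 of 112 tested, and those it chose for L12 at HS-11 were lower in 45 of 47, neither of which is independent evidence of direction.

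Sums of cell type markers differed between the lines. Summed guard cell markers made up 63.8 and 56.3 CPM in L13 and 18.0 and 24.1 CPM in L12, with 2 of 6 tested genes higher. These were FAMA and GORK, which rest on few counts in L12, 8 and 4 for FAMA and 2 in each library for GORK. Phloem markers summed to 472 and 475 CPM in L13 and 163 and 171 CPM in L12, with 2 of 3 higher, SUC2 and HA3. The companion cell sucrose carrier SUC2 had 284 and 273 CPM in L13 and 52.1 and 58.4 CPM in L12. The sum rests largely on SUC2 and HA3. APL went the other way without passing the test, at 14.0 and 17.4 CPM in L13 and 22.5 and 22.6 CPM in L12. Flower and meristem markers summed to 40.7 and 39.8 CPM in L13 and 20.2 and 17.1 CPM in L12, and root markers to 20.3 and 17.1 CPM in L13 and 4.92 and 6.99 CPM in L12, where the root hair genes RHD6, EXPA7 and EXPA18 were at 0 in all libraries of the stage. The root sum rests largely on SHR, at 15.6 and 14.0 CPM in L13, the only root marker that passed the test. Of the flower and meristem markers only STM, at 19.2 and 18.0 CPM in L13, and SEP3 passed. Mesophyll markers summed to 9042 and 8945 CPM in L13 and 11806 and 11377 CPM in L12, with RBCS1A, CA1 and RCA lower and LHCB3 and LHCB5 higher of 6 tested. Epidermis and trichome markers summed to 502 and 483 CPM in L13 and 571 and 566 CPM in L12. Of 5 tested, 2 were higher, ATML1 and FDH, and 1 was lower, GL2, at 103 and 107 CPM in L13 and 283 and 265 CPM in L12, so that the lower sum in L13 rests on GL2. Xylem markers summed to 121 and 117 CPM in L13 and 155 and 180 CPM in L12, with 1 of 3 lower. In these bulk leaf samples fewer cells of a type and less RNA per cell cannot be told apart, and the part of cell makeup in the results above was not tested. Genes of the chloroplast genome summed to 5015 and 4927 CPM in L13 and 5672 and 11789 CPM in L12, so that the L12 libraries differed from each other in poly(A)-selected organelle RNA.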

How the data were processed

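Poly(A) RNA of leaves was sequenced on an Illumina NovaSeq instrument. The values are counts per gene that the authors deposited without normalization, after alignment to TAIR10 with Bowtie2, removal of duplicates with Picard and counting with Subread. The strand setting and annotation release are not given in the sources used here, so overlapping and antisense genes cannot be separated. Library totals ran between 46825 and 5739590 counts, the lowest in WT R-3. Suffixed entries (3911, 0.283% of counts) were kept.

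Counts of all 30 libraries were fitted in R 4.3.3 with edgeR 4.0.16 (filterByExpr, TMM, glmQLFit and glmQLFTest, 15 treatments with 1 mean each), adjusted over 19761 genes by Benjamini-Hochberg, with adjusted p under 0.01 as threshold. The biological coefficient of variation was 0.0772. SEs were obtained from each log2 fold change and its F statistic. DESeq2 1.42.0 was an alternative. Tables and figures used Python 3.11.15. On simulated counts for the comparison at HS-11 (19534 genes, 200 changed), 88% of 2-fold and 100% of 4-fold changes were recovered, with 2 false calls. Far fewer genes were changed there than the 9398 called in the data, so these rates need not hold for the real comparison. With 2 replicates per treatment, the p-values weigh each difference against a spread estimated over all 30 libraries. The SEs rest on the same spread and are not the scatter of the HS-11 libraries alone. Neither reaches beyond these samples. Replicate libraries differed by more than counting noise (chi-square per degree of freedom 1.19 in L13, 2.40 in L12). Folds against a group without counts are bounds with 3 counts per library. Such floors cover counting error only.

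The gene lists, markers and motifs were chosen with earlier results of these data known. Genes named were, among those past the threshold, the 12 highest and 12 lowest changes (at least 50 counts on average in the higher line, no overlap), for each list the 2 with the largest change, the 2 with the largest mean CPM and further members of lists of up to 15, the 8 largest differences from HS-5, the 8 that were most different at all 5 stages and the 5 with the most counts per library. Other list members named as examples were chosen after their values were seen. Loci whose reference product was not the one named (2) were left out. Start-site windows were cut from the TAIR10.1 genome, credited to RefSeq, since the promoter table planned for was not used here. Columns of pooled values or of the authors' own comparisons were not used.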

Additional observations from a re-analysis of the deposited data

Results flagged for a closer look

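The difference between L13 and L12 was not the same at 11 h as at the earlier stages by edgeR's test of the difference itself, for 8239 genes against HS-5 and 7209 genes against HS-1. The 8 largest differences from HS-5 were all upward. AT1G11210, a cotton fiber protein gene (DUF761), changed by 10.25 on the log2 scale, with 87.6 and 84.1 CPM in L13 and 4.93 and 5.45 CPM in L12 at HS-11, and means of 1.98 CPM in L13 and 149 CPM in L12 at HS-5. The other 7 were AT4G18220 (10.37), LBD11 (10.04), PMT6 (9.88), ERF11 (9.62), ATPMEPCRB (9.47), AT5G02670 (8.96) and AT1G17255 (8.91). In each of these 7 the L12 HS-11 libraries held at most 1 count each, so that the fitted size depends on the prior count and is no bound.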

How the results depend on the processing

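The number of genes called between L13 and L12 at HS-11 was between 6347 and 9602 over 16 alternatives, against 9398, and no gene called in both an alternative and the main comparison changed sign. Leaving out 1 library gave 6347 to 8263 at HS-11, 6489 to 8132 for the difference from HS-5, 5380 to 6583 for the difference from HS-1, 7131 to 9567 for L13 against WT, 716 to 1040 for L12 against WT, where all 4 values were over 1.5 times below 1752, and 38 to 45 for the genes called at all 5 stages. A lone library was then assumed to vary like the other groups. With DESeq2's size factors 61.4% of the calls were higher in L13, against 54.5%, and the median of all genes was 0.34, against 0.21. Replicate numbers did not pair the libraries (correlation of deviations of L13 and L12 at HS-11 0.035, and -0.206 to 0.143 over 105 pairs of treatments). A replicate block gave 9342 calls at HS-11. Of 261 called named genes, 202 were called in every alternative that gave a value and none reversed. Between 16 and 39 were lost when 1 HS-11 library was left out, 20 when the libraries were thinned to 1 depth and 17 with DESeq2's test. The L12 libraries, with fewer counts, limit genes of low level.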
